A study of Mus musculus with 6 samples.

Results

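Brain endothelial cells line the capillaries of the hippocampus and mural cells (pericytes and smooth muscle) wrap them. Among the droplet barcodes of 6 mouse hippocampal libraries, 120 of 50141 passing barcodes (0.239%) met a marker rule for these cells. A barcode passed with at least 300 genes, at least 500 unique molecular identifiers (UMIs, one per captured RNA molecule) and at most 15% mitochondrial UMIs, which left 50141 of 50224 barcodes in the deposited matrices. A member then needed at least 3 UMIs from at least 2 of the 7 marker genes Flt1, Cldn5, Slco1a4, Mecom, Vtn, Rgs5 and Pdgfrb, more of these UMIs than of the neuronal genes Rbfox3, Syt1 and Snap25 together, and no UMI of the liver genes Alb, Fgb and Hp. A member was called endothelial where Flt1, Cldn5 and Slco1a4 gave more UMIs than Vtn, Rgs5 and Pdgfrb, and mural in the opposite case, which gave 47 endothelial and 73 mural barcodes with no ties. The marker genes therefore chose the members, and their levels are given as a description.

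The study profiled hippocampus of mice aged 6 months by droplet single-cell RNA sequencing in 3 groups of 2 samples each. The first group was 5×FAD mice given Aβ3FTnAu, which the series title describes as a protein-gold nanostructure aimed at human amyloid-β plaques. The second was 5×FAD mice given PBS, and the third was WT littermates given PBS. The 5×FAD transgenes carry human genes with familial Alzheimer mutations, human APP among them, under the neuronal Thy1 promoter, so their expression is driven in neurons and not in vascular cells. The labels leave unsaid whether each library is 1 animal or a pool, and the spread behind every p-value may therefore be technical.

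The brain endothelium forms the blood-brain barrier: tight junction proteins such as claudin-5 seal the gaps between cells, solute carriers such as the glucose transporter Slc2a1 feed the tissue, and efflux pumps such as Abcb1a return compounds to the blood. Wnt signalling through β-catenin and Lef1 keeps this program on, and endothelial PDGF-B recruits pericytes through the receptor Pdgfrb. In Alzheimer models the vessel wall is studied as an exit route for amyloid-β, by receptors such as Lrp1 and by Abcb1a, and as a site of amyloid deposition.

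Positions of 6 of the marker genes are given on GRCm38 (GENCODE annotation). Flt1, the VEGF receptor 1 gene, spans chr5:147561604-147726011 on the minus strand, Cldn5 spans chr16:18776847-18778262 on the plus strand, Slco1a4, an organic anion transporter, spans chr6:141805440-141856199 on the minus strand and Mecom, a transcription factor, spans chr3:29951296-30548008 on the minus strand. Vtn, which codes for vitronectin, spans chr11:78499091-78502324, and Rgs5, a regulator of G-protein signalling, spans chr1:169655501-169695813, both on the plus strand. The promoter windows of 2 endothelial and 2 mural marker genes are shown because these genes define the barcodes; each is 300 bases from RefSeq on GRCm38.p6, from 250 bases before to 50 after the start, with every GGAA and its reverse complement TTCC, the core of sites for ETS factors, in capitals. Flt1 is the window chr5:147725962-147726261 (minus strand), Cldn5 is chr16:18776597-18776896 (plus), Vtn is chr11:78498870-78499169 (plus) and Rgs5 is chr1:169655251-169655550 (plus).
Flt1: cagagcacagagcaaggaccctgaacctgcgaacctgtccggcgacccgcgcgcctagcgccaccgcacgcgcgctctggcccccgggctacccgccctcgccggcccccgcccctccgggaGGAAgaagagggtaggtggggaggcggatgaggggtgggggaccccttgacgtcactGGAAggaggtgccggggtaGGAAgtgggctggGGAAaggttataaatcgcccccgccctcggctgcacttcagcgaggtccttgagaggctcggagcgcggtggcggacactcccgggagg
Cldn5: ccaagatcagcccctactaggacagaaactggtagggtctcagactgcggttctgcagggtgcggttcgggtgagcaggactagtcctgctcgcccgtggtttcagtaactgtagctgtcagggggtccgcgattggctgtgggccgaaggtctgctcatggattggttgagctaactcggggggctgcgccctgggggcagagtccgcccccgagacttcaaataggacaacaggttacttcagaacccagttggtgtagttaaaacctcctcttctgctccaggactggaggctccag
Vtn: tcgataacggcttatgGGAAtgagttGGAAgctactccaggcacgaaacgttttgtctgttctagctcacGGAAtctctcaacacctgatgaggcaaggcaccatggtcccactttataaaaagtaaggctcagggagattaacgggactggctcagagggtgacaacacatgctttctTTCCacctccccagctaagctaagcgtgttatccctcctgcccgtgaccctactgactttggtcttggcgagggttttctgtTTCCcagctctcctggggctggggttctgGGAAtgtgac
Rgs5: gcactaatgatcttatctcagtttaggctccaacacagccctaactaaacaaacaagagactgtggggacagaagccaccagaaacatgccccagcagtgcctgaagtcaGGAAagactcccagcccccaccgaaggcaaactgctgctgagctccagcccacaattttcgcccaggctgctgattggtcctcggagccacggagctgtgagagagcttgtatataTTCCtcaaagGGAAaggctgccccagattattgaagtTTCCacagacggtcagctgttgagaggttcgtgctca
The core was found 4 times in the Flt1 window, 0 times in the Cldn5 window, 6 times in the Vtn window and 4 times in the Rgs5 window. It was present in 31532 of all 32851 RefSeq windows of this length (96.0%), with a median of 3 per window. Of 20 further endothelial identity genes 14 matched, and all 20 of their windows held the core, with a median of 4. Of 18 pericyte identity genes 15 matched, and 20 of their 22 windows held it, with a median of 3.

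The members were few and unevenly spread. In the 5×FAD Aβ3FTnAu samples there were 11 members in sample 1 and 9 in sample 2. The 5×FAD PBS samples held 13 and 7, and the WT PBS samples held 71 and 9. Thus WT PBS 1 alone gave 59.2% of all members, including 51 of the 73 mural barcodes. As shares of passing barcodes the values were 0.134% (95% exact Clopper-Pearson interval 0.0671 to 0.240) and 0.136% (0.0624 to 0.259) in 5×FAD Aβ3FTnAu, 0.252% (0.134 to 0.430) and 0.0776% (0.0312 to 0.160) in 5×FAD PBS, and 0.474% (0.370 to 0.597) and 0.145% (0.0665 to 0.276) in WT PBS, where intervals cover counting error only. The interval of WT PBS 1 overlapped that of 5×FAD PBS 1 and lay above the other 4.

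**Figure D1:**
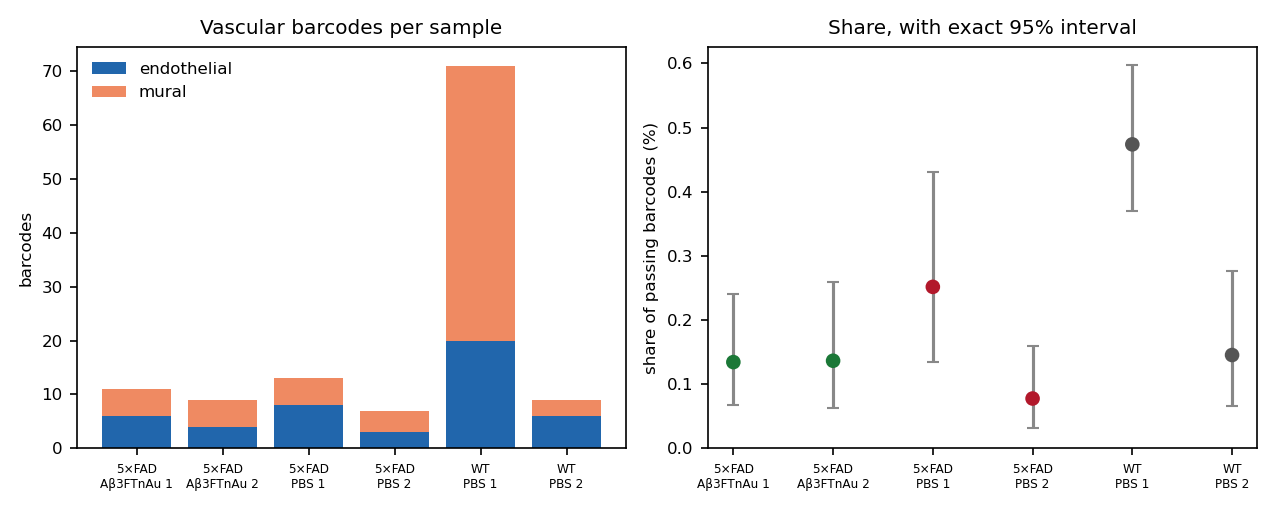
Left, stacked bars of endothelial (blue) and mural (orange) barcodes in each of the 6 samples. Right, vascular barcodes as a percentage of passing barcodes, with exact 95% intervals; WT PBS 1 stands at 0.474% and the other 5 samples lie between 0.0776% and 0.252%.

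WT PBS 1 also stood apart from the other libraries in features outside the marker rule. It held all 12 barcodes that met the marker part of the rule and were removed for a UMI of Alb, Fgb or Hp, and 827 of its passing barcodes carried such a UMI, against 2 to 11 in each other library. Gm42418, a transcript overlapping a ribosomal RNA repeat, reached 131 CPM (UMIs scaled to a common total per sample) in the non-member barcodes of WT PBS 1 and 2159 to 3337 CPM in those of the other 5 libraries. Among members, 15 of 71 in WT PBS 1 carried a Gm42418 UMI, while every member of the other 5 samples did. Values without it are given below for the member share, the identity lists, the leading genes and the comparison across all genes. Across the 15 pairs of libraries, 295 barcode sequences were shared (9 to 45 per pair), no sequence was a member in both libraries of a pair, and 3 members shared a sequence with some barcode of another library.

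The member barcodes were shallow. Their median UMI counts were 766 and 619 in 5×FAD Aβ3FTnAu, 1600 and 911 in 5×FAD PBS, and 788 and 2348 in WT PBS, against 3746 to 4946 in non-member barcodes. All members of a sample together gave 10459 and 6133 UMIs in 5×FAD Aβ3FTnAu, 33034 and 12600 in 5×FAD PBS, and 70859 and 23572 in WT PBS. Levels below are CPM over these sums, so 1 UMI in 5×FAD Aβ3FTnAu 2 counts for more than 10 times as much as 1 UMI in WT PBS 1. In all 6 libraries the pooled UMIs of members had a higher mitochondrial share than those of non-members. In some libraries single barcodes gave much of it. In WT PBS 1, 1 member held 270 of the 386 mitochondrial UMIs, and 35 of the 71 members had none. In 5×FAD PBS, 1 member held 199 of 456 in sample 1 and 1 held 181 of 335 in sample 2. Mitochondrial UMIs were 0.306% and 0.147% of member UMIs in 5×FAD Aβ3FTnAu, 1.38% and 2.66% in 5×FAD PBS, and 0.545% and 2.62% in WT PBS. In non-members they were 0.0165% and 0.0130% in 5×FAD Aβ3FTnAu, 0.0897% and 0.132% in 5×FAD PBS, and 0.0246% and 0.0768% in WT PBS.

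The share of members did not separate the groups. It averaged 0.165% ± 0.123 in 5×FAD PBS and 0.310% ± 0.232 in WT PBS (SD, n = 2 each), a difference of −0.145 percentage points (two-sided exact permutation test over samples, p = 0.667; the smallest p that 2 against 2 samples allow is 0.333). Without WT PBS 1 the difference was 0.0192 percentage points. The share averaged 0.135% ± 0.00149 in 5×FAD Aβ3FTnAu against 0.165% ± 0.123 in 5×FAD PBS (SD, n = 2 each; exact permutation p = 1), and both Aβ3FTnAu samples lay between the 2 PBS samples. The same difference was 0.0578 percentage points without 5×FAD PBS 1.

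The endothelial part of the members was 54.5% and 44.4% in 5×FAD Aβ3FTnAu, 61.5% and 42.9% in 5×FAD PBS, and 28.2% and 66.7% in WT PBS. The groups overlapped in both comparisons, and the 2 WT PBS samples spanned the whole range (two-sided exact permutation p = 1 in both comparisons). The barcodes near the threshold were a small part: 12 members had exactly 3 marker UMIs, and 16 barcodes just outside had 2 UMIs of 2 marker genes. A further 42 barcodes with enough marker UMIs were left out because neuronal UMIs equalled or outnumbered them, 23 of them in WT PBS 1.

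Genes that the rule did not use matched the endothelial and mural names in most barcodes. The endothelial identity list (20 genes, among them Pecam1, the angiopoietin receptor gene Tek and the endothelial adhesion receptor Adgrl4) gave 702 UMIs in the 47 endothelial barcodes and 109 in the 73 mural ones. The pericyte identity list (18 genes, among them the ATPase Atp13a5, the potassium channel subunits Kcnj8 and Abcc9, and Notch3) gave 266 UMIs in endothelial and 794 in mural barcodes. Of the 47 endothelial barcodes, 40 held more endothelial than pericyte identity UMIs and 6 held fewer, while 70 of the 73 mural barcodes held more pericyte than endothelial UMIs and 3 held fewer. Outside WT PBS 1, 22 of 27 endothelial barcodes held more endothelial than pericyte UMIs and 5 held fewer, and 19 of 22 mural barcodes held more pericyte than endothelial UMIs and 3 held fewer. Against the fibroblast list, 6 of the 73 mural barcodes held more fibroblast than pericyte identity UMIs. These were 3 of the 9 mural barcodes of 5×FAD PBS and 3 of the 54 of WT PBS, with 0 of the 10 of 5×FAD Aβ3FTnAu. With each barcode thinned to 500 UMIs, 85.1% of endothelial, 24.7% of mural and 3.54% of non-member barcodes kept an endothelial identity UMI (95.7%, 34.2% and 26.1% unthinned). For the pericyte list these shares were 66.0%, 98.6% and 15.6% (87.2%, 100% and 65.3% unthinned), at median depths of 900 UMIs in endothelial, 793 in mural and 3746 to 4946 in non-member barcodes. Outside WT PBS 1 the thinned shares were 81.5%, 27.3% and 3.75% for the endothelial list and 77.8%, 95.5% and 15.9% for the pericyte list. Since the same barcodes were chosen on co-expressed markers, these values describe the members and carry no test.

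**Figure D2:**
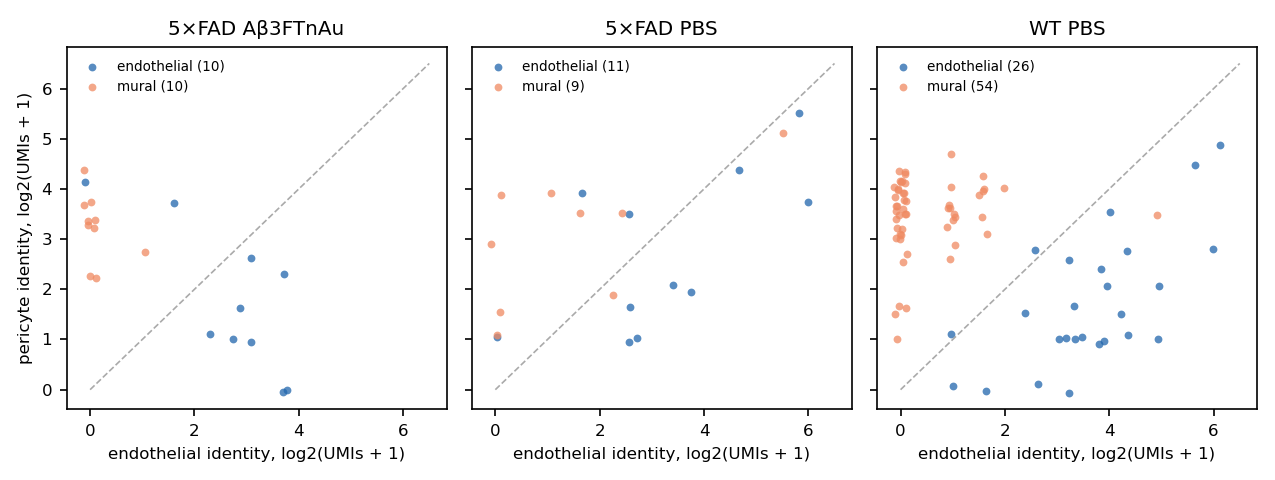
Each point is 1 member barcode, placed by its UMIs of 20 endothelial (x) and 18 pericyte (y) identity genes on a log2(UMIs + 1) scale with a small random shift, in the 3 groups; the dashed line marks equal values. Of the mural barcodes (orange) 70 of 73 lie above the line and of the endothelial ones (blue) 40 of 47 lie below it.

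The mural barcodes carried pericyte genes, and 4 of 13 smooth muscle genes had no UMI in them or in the endothelial barcodes. Atp13a5 gave 10 and 23 UMIs in the mural barcodes of 5×FAD Aβ3FTnAu, 16 and 15 in 5×FAD PBS, and 175 and 13 in WT PBS, and was present in 65 of 73 mural barcodes. The pericyte list summed to 8328 ± 1366 CPM in 5×FAD Aβ3FTnAu, 4508 ± 89.5 in 5×FAD PBS and 6163 ± 4097 in WT PBS (SD, n = 2 each). Both Aβ3FTnAu samples lay above both 5×FAD PBS samples, while the 2 PBS groups overlapped. With 2 against 2 samples no exact test can reach 0.05. In non-members the list stood at 408 ± 17.8, 324 ± 2.93 and 330 ± 24.2 CPM in the same order of groups (SD). Mural barcodes gave 6033 of 10459 and 3549 of 6133 member UMIs in 5×FAD Aβ3FTnAu. In 5×FAD PBS they gave 12032 of 33034 and 4651 of 12600. Within mural barcodes the list reached 10467 ± 4723 CPM in 5×FAD Aβ3FTnAu and 5843 ± 859 in 5×FAD PBS. The part of library and cell mix was not tested. Kcnj8 and Abcc9, which form the ATP-sensitive potassium channel of pericytes, gave 27 and 56 UMIs in mural barcodes, against 0 and 12 in endothelial ones. Of the smooth muscle list of 13 genes, 9 had a UMI, with 34 UMIs in 21 of 73 mural barcodes and 22 UMIs in 11 of 47 endothelial ones. Pooled over samples the list stood at 357 CPM in members and 238 CPM in non-members. It was led by Mylk, the myosin light chain kinase gene (18 UMIs), the integrin gene Itga8 (15) and the myosin light chain gene Myl9 (8). The contractile genes Acta2, Tagln, Cnn1 and Pln had no UMI in any of the 120 members, and Myh11, smooth muscle myosin, had 4 and 3 UMIs in the WT PBS samples, in 4 barcodes of which 2 were mural, and none in the other 4 samples. A count of 0 allows up to 3 UMIs in the 156657 UMIs of all members.

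Genes outside the 7 of the rule were ranked if they had at least 20 UMIs over all samples and a UMI in at least 5 samples. The ranking used their ratio over the non-members of the same sample, as the mean over samples of the log2 ratio after adding 100 CPM. In endothelial barcodes they were led by Ebf1, a transcription factor (log2 ratio 4.38), Bsg, the cell surface protein basigin (3.96), the mitochondrial gene mt-Atp6 (3.92), Adgrl4 (3.87) and Lef1 (3.86). In mural barcodes the leading genes included Atp13a5 (4.81), Dlc1 (4.08), Ebf1 (3.81) and caldesmon, Cald1 (3.45). Without WT PBS 1 these ratios were 4.38 for Ebf1, 3.85 for Bsg, 3.75 for mt-Atp6, 3.91 for Adgrl4 and 3.94 for Lef1 in endothelial barcodes. In mural ones they were 4.73 for Atp13a5, 4.08 for Dlc1, 3.66 for Ebf1 and 3.50 for Cald1. Ebf1, which is on the pericyte list, led on both sides, with 145 UMIs in 37 endothelial and 157 in 58 mural barcodes.

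Barrier transport genes were concentrated in the endothelial barcodes. The list of 26 barrier transporters and receptors without Slco1a4 gave 771 UMIs in endothelial and 147 in mural barcodes, and 25 of the 26 genes had a UMI. Per sample the summed list reached 5350 ± 1888 CPM in 5×FAD Aβ3FTnAu, 6107 ± 1016 in 5×FAD PBS and 7398 ± 3816 in WT PBS (SD, n = 2 each), with overlapping groups, against 668 to 815 CPM in the non-members. Slc2a1, the glucose transporter of the barrier, had 1 and 1 UMIs in 5×FAD Aβ3FTnAu, 10 and 3 in 5×FAD PBS, and 26 and 15 in WT PBS. It was found in 22 of 47 endothelial barcodes and 2 of 73 mural ones, and 15 of the 26 UMIs in WT PBS 1 came from 1 barcode. Slco1c1, a thyroid hormone transporter, had 4 and 2 UMIs in 5×FAD Aβ3FTnAu, 16 and 9 in 5×FAD PBS, and 44 and 28 in WT PBS. Slc6a6, the taurine transporter, had 3 and 6, 16 and 19, and 32 and 31 UMIs in the same order of groups. The efflux pump genes Abcb1a and Abcg2 were present in 24 and 23 of the 47 endothelial barcodes. Plvap, which marks leaky endothelium outside the barrier, had 1 UMI in all members.

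The junction genes outside the rule were led by Tjp1, which codes for the scaffold ZO-1. It had 13 and 19 UMIs in 5×FAD Aβ3FTnAu, 39 and 22 in 5×FAD PBS, and 58 and 17 in WT PBS, and was spread over 36 endothelial and 34 mural barcodes. Ocln, the gene of occludin, was found in 18 endothelial barcodes and 1 mural barcode, and Cgn had no UMI. Cldn5 itself, a gene of the rule, had 2 and 6 UMIs in 5×FAD Aβ3FTnAu, 45 and 19 in 5×FAD PBS, and 56 and 58 in WT PBS. Of the 45 Cldn5 UMIs in 5×FAD PBS 1, 22 were in 1 mural barcode with 44 endothelial and 32 pericyte identity UMIs.

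Of the vessel zone lists, which differ in length, the capillary one had the most UMIs. The capillary list of 8 genes gave 286 UMIs in endothelial barcodes, the venous list of 9 genes gave 67 and the arterial list of 13 genes gave 35. Spock2, an extracellular proteoglycan, was present in 24 endothelial barcodes and Slc7a5, the large amino acid transporter, in 21, while the arterial genes Gkn3 and Gja5 had no UMI. Of the venous list, Il1r1, the interleukin-1 receptor, had 1 and 0 UMIs in 5×FAD Aβ3FTnAu, 15 and 3 in 5×FAD PBS, and 1 and 10 in WT PBS. These Il1r1 UMIs came from 9 barcodes, and 11 of the 15 in 5×FAD PBS 1 came from 1 of them.

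Growth factor signalling genes were unevenly spread over the barcodes. Pdgfb, the ligand that endothelial cells send to pericytes, had 26 UMIs in endothelial and 7 in mural barcodes, while Notch3, the pericyte Notch receptor, had 13 and 54. By sample Pdgfb had 0 and 0 UMIs in 5×FAD Aβ3FTnAu, 11 and 3 in 5×FAD PBS, and 12 and 7 in WT PBS, with none among the 16592 member UMIs of the treated samples. Tek and Ptprb, the angiopoietin receptor and the phosphatase that restrains it, were present in 25 and 28 of the 47 endothelial barcodes and in 1 and 2 mural ones. Of the angiogenic ligands, Vegfa had 8 UMIs in all members, Angpt2 had 2 and Apln had none. Lef1, the Wnt transcription factor, had 10 and 6 UMIs in 5×FAD Aβ3FTnAu, 16 and 15 in 5×FAD PBS, and 32 and 17 in WT PBS, and was present in 31 of 47 endothelial barcodes. Id1, a target of BMP signalling, had 1 and 0, 13 and 7, and 11 and 27 UMIs in the same order. The TGF-β and BMP list of 16 genes summed to 1206 ± 322 CPM in 5×FAD Aβ3FTnAu, 2481 ± 83.4 in 5×FAD PBS and 2827 ± 2002 in WT PBS (SD, n = 2 each). Both Aβ3FTnAu samples lay below both 5×FAD PBS samples, and the 2 PBS groups overlapped.

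The basement membrane list of 14 genes was shared by both cell types, with 123 UMIs in endothelial and 189 in mural barcodes. Its leading gene Lamc1, the laminin γ1 chain, had 3 and 1 UMIs in 5×FAD Aβ3FTnAu, 11 and 7 in 5×FAD PBS, and 43 and 6 in WT PBS. It was found in 37 mural and 7 endothelial barcodes. The list reached 1709 ± 119 CPM in 5×FAD Aβ3FTnAu, 1700 ± 721 in 5×FAD PBS and 2218 ± 403 in WT PBS (SD, n = 2 each), with overlapping groups.

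Of 20 adhesion and inflammatory genes, 11 had no UMI in any member, among them the selectins Sele and Selp, the chemokines Cxcl1, Cxcl10 and Ccl2, and Lcn2. Vcam1 had 5 UMIs and Icam1 had 2 over all members. The list held 99 UMIs, led by Il1r1 and by the NF-κB inhibitor gene Nfkbia, which had 1 and 0 UMIs in 5×FAD Aβ3FTnAu, 3 and 0 in 5×FAD PBS, and 7 and 12 in WT PBS. The interferon and MHC class I list was led by H2-K1 and H2-D1, which code for class I heavy chains. H2-K1 had 4 and 3 UMIs in 5×FAD Aβ3FTnAu, 0 and 4 in 5×FAD PBS, and 31 and 14 in WT PBS. The list summed to 852 ± 283 CPM in 5×FAD Aβ3FTnAu, 1098 ± 355 in 5×FAD PBS and 2141 ± 872 in WT PBS (SD, n = 2 each). Both 5×FAD PBS samples lay below both WT PBS samples, while the 2 groups of 5×FAD overlapped.

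Of 14 genes for transport and clearance of amyloid-β, 10 had a UMI. Apoe, the apolipoprotein E gene, had 6 and 2 UMIs in 5×FAD Aβ3FTnAu, 37 and 19 in 5×FAD PBS, and 111 and 52 in WT PBS. It was found in 27 endothelial and 31 mural barcodes. App, the endogenous precursor gene, had 8 and 7, 26 and 8, and 50 and 23 UMIs in the same order. The clearance receptor Lrp1 had 14 UMIs in 11 barcodes, 8 of them mural, and the influx receptor Ager, the neprilysin gene Mme, Lrp2 and Cd36 had none. Among 15 genes of iron and metal handling, Tfrc, the transferrin receptor of barrier endothelium, had 5 and 4 UMIs in 5×FAD Aβ3FTnAu, 6 and 3 in 5×FAD PBS, and 23 and 13 in WT PBS. Fth1, the ferritin heavy chain, had 2 and 1 UMIs in 5×FAD Aβ3FTnAu, 17 and 13 in 5×FAD PBS, and 33 and 27 in WT PBS. Hmox1 and Heph had none. Of 13 immediate early and heat shock genes, which rise with dissociation stress, 9 had a UMI, 81 UMIs in all. Pooled over samples the list stood at 517 CPM in members and 138 CPM in non-members. It was led by the constitutive chaperone gene Hspa8 with 25 UMIs, the AP-1 gene Jund with 20 and Hsp90aa1 with 14, and Fos, Atf3, Hspa1a and Hspa1b had none.

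**Figure D3:**
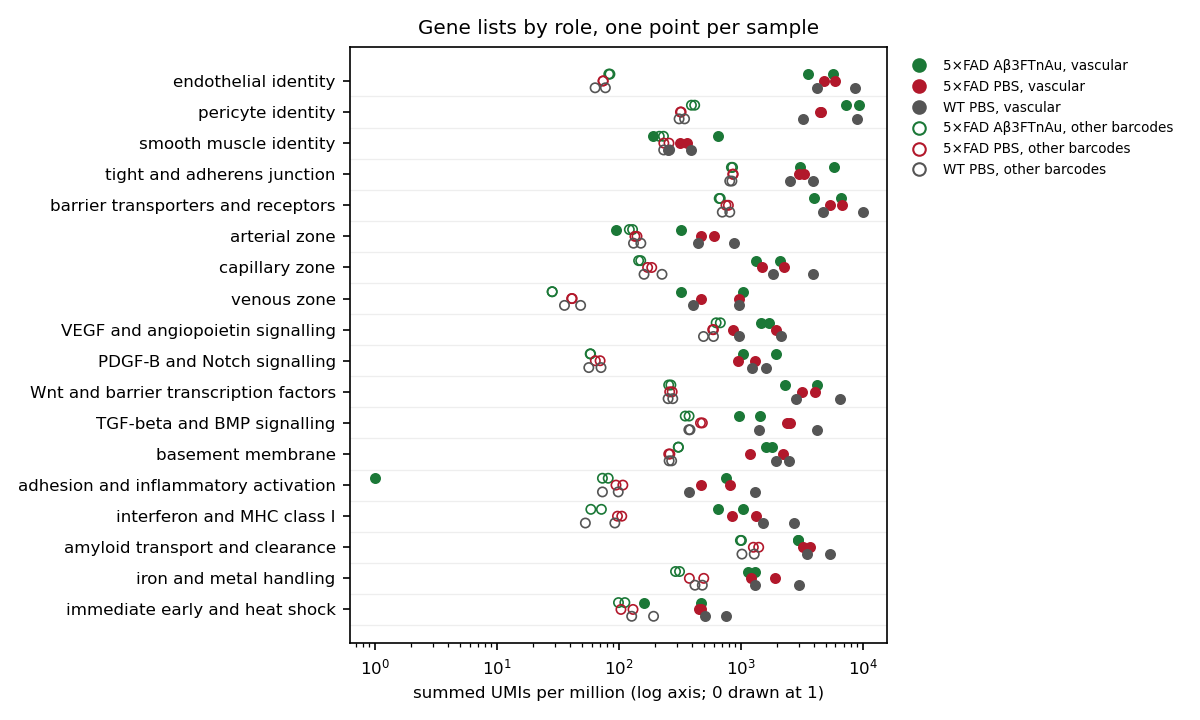
Summed CPM (log axis, 0 drawn at 1) of each gene list in the vascular members (filled) and in the non-member barcodes (open), 1 point per sample, coloured by group. Members exceed the non-members of their own sample except for the smooth muscle list in 2 samples, and the arterial and adhesion lists in 1 sample each; the point at 1 is 5×FAD Aβ3FTnAu 2, with no UMI of the adhesion list.

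Genes of other cell types were present in some members. Neuronal genes outside the rule reached 2519 ± 588 CPM in 5×FAD Aβ3FTnAu, 4241 ± 175 in 5×FAD PBS and 3600 ± 3411 in WT PBS (SD, n = 2 each), against 19168 to 22052 in non-members. Astrocyte genes (10 genes, all with a UMI) gave 513 UMIs, in 25 of 47 endothelial and 67 of 73 mural barcodes, and 12 members held at least 10. They reached 2629 ± 202 CPM in 5×FAD Aβ3FTnAu, 2706 ± 102 in 5×FAD PBS and 3899 ± 605 in WT PBS (SD, n = 2 each), against 713 to 1176 CPM in non-members, so members were higher than non-members in all 6 samples. Of these genes, Slc1a3 had 69 UMIs, the glutamate transporter gene Slc1a2 had 59 and Gpc5 had 56, while Gfap had 3 and Aqp4, the water channel of astrocyte endfeet, had 1. The part of astrocyte RNA in the results was not tested. Fibroblast genes reached 388 ± 143, 1868 ± 501 and 586 ± 708 CPM in the same order, with both 5×FAD PBS samples above all others, and all 4 members with at least 10 fibroblast UMIs were mural, 3 of them in 5×FAD PBS. The part of these barcodes in the group values was not tested. Haemoglobin genes were concentrated in 1 mural barcode of 5×FAD PBS 1, which held 562 of the 599 Hbb-bs UMIs of all members. Oligodendrocyte genes stood at 8127 CPM in 5×FAD Aβ3FTnAu 1 and at 238 to 988 in the other 5 samples, and 21 of the 26 Mbp UMIs there were in 1 barcode. The 10 barcodes with at least 3 UMIs on both sides of the rule included 8 of the 17 members with at least 2000 UMIs, and the other 2, both in 5×FAD Aβ3FTnAu 1, had 539 and 857 UMIs. The hepatocyte list had 1 UMI in members (Ttr, which choroid plexus also expresses). Of the 10 liver sinusoidal genes 5 had a UMI, 18 in all, of which 10 were of Maf, and pooled over samples the list stood at 115 CPM in members and 65.6 CPM in non-members. Stab2, Lyve1 and Dnase1l3 had none.

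**Figure D4:**
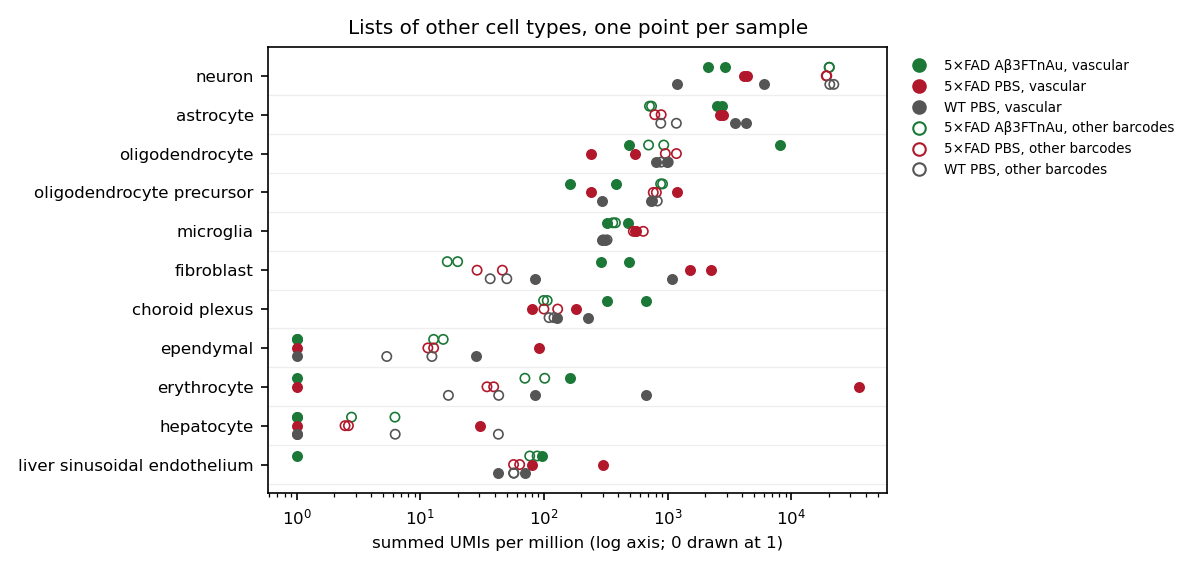
Summed CPM (log axis, 0 drawn at 1) of marker lists of other cell types in vascular members (filled) and non-member barcodes (open), 1 point per sample. The erythrocyte list reaches 35479 CPM in 5×FAD PBS 1, and the oligodendrocyte list reaches 8127 in 5×FAD Aβ3FTnAu 1.

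For the comparison of groups across all genes, the minimum of 10 members per sample was met by 3 samples, 1 in each group, which leaves no replicate and no test. The counts of all 6 samples, each with at least 5 members, were therefore fitted instead, a choice made after the member counts were known. Of 246 genes with enough UMIs, 0 passed an adjusted p of 0.05 in 5×FAD PBS against WT PBS (0% called; edgeR quasi-likelihood test, Benjamini-Hochberg), with 8 genes at an unadjusted p under 0.05. DESeq2 also called 0, with 4 genes at an unadjusted p under 0.05. In 5×FAD Aβ3FTnAu against 5×FAD PBS 0 of the 246 genes passed (0% called), with 32 at an unadjusted p under 0.05, and DESeq2 called 0, with 26. The counts moved with single libraries left out, where the lone sample left in a group was taken to vary like the others. Without 5×FAD PBS 1, 2 genes were called in 5×FAD PBS against WT PBS and 5 in 5×FAD Aβ3FTnAu against 5×FAD PBS, without 5×FAD PBS 2 the numbers were 4 and 11, and without WT PBS 2 they were 1 and 8. No fit was made within endothelial or within mural barcodes, since samples held as few as 3 of either.

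In 5×FAD PBS against WT PBS the genes with the smallest p on the higher side were Lrrtm4, Slc1a3, Slc7a11, Auts2 and Lingo2, and those on the lower side included Itm2b, Cd81, Slc38a11 and Arhgap42, all at an adjusted p of 0.988 (edgeR). Lrrtm4, a synaptic adhesion gene, had 42 and 48 UMIs in 5×FAD PBS and 19 and 0 in WT PBS (log2 fold change 3.82, SE 1.12). Of these, 36 of the 42 in 5×FAD PBS 1 and 46 of the 48 in 5×FAD PBS 2 were in 1 barcode each, both called endothelial by the rule. These barcodes held 59 and 46 UMIs of neuronal genes outside the rule, beside 6 and 5 endothelial identity UMIs. The same barcodes held 16 of the 46 Auts2 UMIs of 5×FAD PBS 1 and 23 of the 25 of 5×FAD PBS 2. For Lingo2 they held 13 of 22 and 8 of 8. The part of neuronal RNA in these differences was not tested. Slc1a3, a glutamate transporter of astrocytes, had 30 and 14 UMIs in 5×FAD PBS and 19 and 4 in WT PBS (log2 fold change 2.06, SE 0.73), and 12 of the 14 were in 1 mural barcode with 23 fibroblast UMIs and 1 pericyte identity UMI. Slc7a11, the cystine transporter, had 43 and 16 UMIs in 5×FAD PBS and 31 and 3 in WT PBS (log2 fold change 1.99, SE 0.71), in 16 of all 120 barcodes. Of the 43 UMIs in 5×FAD PBS 1, 29 lay in mural barcodes with more fibroblast than pericyte UMIs, as did 15 of the 16 in 5×FAD PBS 2. Without WT PBS 1 the log2 fold change was 2.39 for Slc1a3 (adjusted p = 0.428) and 3.15 for Slc7a11 (adjusted p = 0.358, edgeR), while WT PBS 2 had no UMI of Lrrtm4.

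On the lower side, Itm2b and Cd81 were each found in at least 60 barcodes. Itm2b, an integral membrane protein gene, had 20 and 5 UMIs in 5×FAD PBS and 130 and 38 in WT PBS (log2 fold change −1.77, SE 0.65), in 79 of 120 barcodes. Cd81, a tetraspanin gene, had 13 and 4 UMIs in 5×FAD PBS and 81 and 22 in WT PBS (log2 fold change −1.55, SE 0.60), in 60 barcodes. In the non-members Itm2b stood at 222 and 260 CPM in 5×FAD PBS and 532 and 237 in WT PBS, and Cd81 at 70.6 and 101 in 5×FAD PBS and 246 and 86.7 in WT PBS, with WT PBS 1 the highest for both. Without WT PBS 1, 0 of 279 genes were called (edgeR), with 31 at an unadjusted p under 0.05. The log2 fold change was then −1.74 for Itm2b (adjusted p = 0.428) and −1.46 for Cd81 (adjusted p = 0.545, edgeR).

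In 5×FAD Aβ3FTnAu against 5×FAD PBS the smallest p on the lower side belonged to Slc7a11, Actb, mt-Co2, mt-Cytb and mt-Co3, all at an adjusted p of 0.215 (edgeR). Slc7a11 had 0 and 0 UMIs in 5×FAD Aβ3FTnAu and 43 and 16 in 5×FAD PBS, and Actb, the β-actin gene, had 0 and 0 against 27 and 5. Set against 3 UMIs over the 16592 member UMIs of the treated group, the mean level in 5×FAD PBS was 7.11-fold higher for Slc7a11 and 3.36-fold higher for Actb. These ratios allow for counting error in the treated group only, and not for the spread between barcodes or samples. The Slc7a11 UMIs of 5×FAD PBS lay in 4 barcodes of sample 1 and 2 of sample 2, with most of these UMIs in the fibroblast-rich mural barcodes named above, and those of Actb lay in 7 and 1. The part of these barcodes in the differences was not tested. The mitochondrial gene mt-Co3 had 0 and 2 UMIs in 5×FAD Aβ3FTnAu and 94 and 75 in 5×FAD PBS (log2 fold change −5.11, SE 1.41). Those of 5×FAD PBS lay in 6 and 5 barcodes, and 43 of the 94 and 37 of the 75 were in 1 barcode each. The non-members of the same libraries also differed in mt-Co3, at 32.9 and 24.9 CPM in 5×FAD Aβ3FTnAu and 189 and 293 in 5×FAD PBS. The part of library quality in these differences was not tested.

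On the higher side of the same comparison the smallest p belonged to Rtn4, Gm15261, Gnaq, Arhgap42 and Fryl, with adjusted p of 0.298 to 0.368 (edgeR). Rtn4, which codes for the reticulon Nogo, had 11 and 4 UMIs in 5×FAD Aβ3FTnAu and 5 and 2 in 5×FAD PBS (log2 fold change 2.40, SE 0.88). Of the 11, 5 came from 1 mural barcode with 63 oligodendrocyte UMIs. Gnaq, a G-protein subunit gene, had 8 and 6 UMIs in 5×FAD Aβ3FTnAu and 5 and 4 in 5×FAD PBS (log2 fold change 1.89, SE 0.73). Gm15261 had 10 and 13 UMIs in 5×FAD Aβ3FTnAu and 10 and 7 in 5×FAD PBS, and 65 of its 74 UMIs in all members were in mural barcodes. Both comparisons share the 5×FAD PBS samples, so Slc7a11 and Arhgap42, which appear in both with opposite signs, rest on the same 2 samples.

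**Figure D5:**
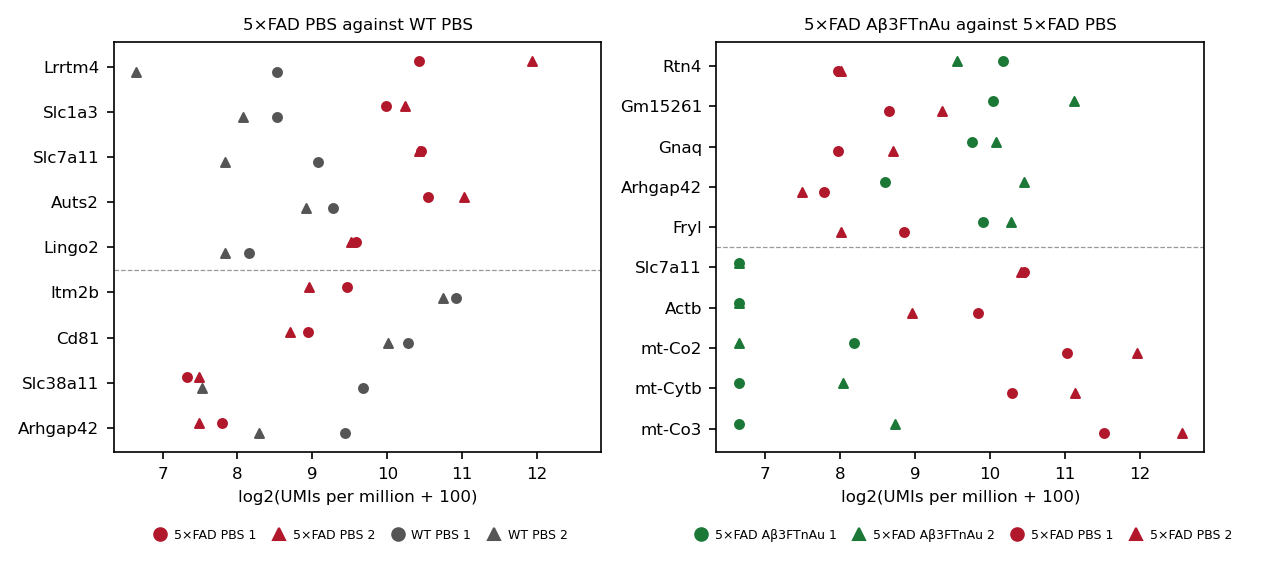
Level in vascular members, as log2(CPM + 100), of the genes named for the smallest p on the higher side (above the dashed line) and on the lower side (below it) in each comparison; circles are sample 1 and triangles sample 2 of a group. The groups do not overlap for any of the entries shown, yet 0 of 246 genes passed the adjusted threshold in either comparison.

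The role lists had few genes deep enough for the fit, which summed endothelial and mural barcodes whose mix differed between samples. Endothelial barcodes gave 4426 of 10459 and 2584 of 6133 member UMIs in 5×FAD Aβ3FTnAu. In 5×FAD PBS they gave 21002 of 33034 and 7949 of 12600, and in WT PBS 23044 of 70859 and 18267 of 23572. How far this mix bears on the values below was not tested. In 5×FAD PBS against WT PBS, 7 barrier genes outside the rule were tested and 0 called, with a median log2 fold change of −0.11, beside 0.02 over all 246 genes. The 3 tested endothelial identity genes had a median of −0.30 and the 3 pericyte identity genes −0.54, with 0 called in either list. In 5×FAD Aβ3FTnAu against 5×FAD PBS the medians were −0.76 for the 7 barrier genes, 0.29 for endothelial identity and 1.14 for pericyte identity, beside −0.01 over all genes, again with 0 called. Among the most abundant members of these lists, Atp13a5 had a log2 fold change of 1.44 (SE 0.79, adjusted p = 0.410, edgeR) and Tjp1 one of 0.42 (SE 0.65, adjusted p = 0.847, edgeR) in this comparison. Fth1 stood at −2.07 (SE 0.89, adjusted p = 0.368, edgeR) and Apoe at −1.52 (SE 0.72, adjusted p = 0.368, edgeR).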

How the data were processed

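Gene counts came from droplet 3′ single-cell RNA sequencing of hippocampus: per the file headers, the authors deposited whole-number UMI counts per gene and barcode from Cell Ranger 7.1.0, unnormalized. The submitters' processing notes also name mm10 and Seurat 4.3.0.1. Total counts were 32528417 to 76780861 per library over all barcodes in the deposited matrices, before filtering. From these, barcodes were filtered, and members were found by the marker rule, summed per sample and tested with edgeR 4.0.16 (quasi-likelihood, TMM factors, filterByExpr, Benjamini-Hochberg at 0.05), with DESeq2 1.42.0 as an alternative, in R 4.3.3. The planned minimum of 10 members left 1 sample per group, so a fit over all 6 samples, with at least 5 members each, was chosen after the counts were seen. Shares were compared by exact permutation. By rule, the genes named from the fit are the 5 with the smallest p in each direction, where fewer than 5 pass, and the 2 most abundant tested genes of each list; other list genes were named after their values were seen. No high doublet score (Scrublet in scanpy 1.11.5) fell on a member, although its automatic call marked under 0.5% of barcodes in some libraries and did not work there. Members and lists were chosen with earlier results of these data known. Intervals cover counting error only. Some genes that these rules select are not reported here.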

Additional observations from a re-analysis of the deposited data

Results flagged for a closer look

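The barcodes with at least 3 vascular marker UMIs that were left out for a UMI of the liver genes Alb, Fgb or Hp came from WT PBS 1 alone, with 12 there and 0 in each of the other 5 libraries. This signal lies outside the main comparison, and was noted because the other libraries showed none of it. In all, 122 passing barcodes of WT PBS 1 held at least 3 UMIs of these genes and 0 did in any other library. Its source was not tested.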

How the results depend on the processing

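The limits are few members, shallow barcodes, and WT PBS 1 with 59.2% of the members. The difference in member share in 5×FAD PBS against WT PBS was −0.145 percentage points and turned to 0.0192 without WT PBS 1 (range over left-out samples −0.309 to 0.0192). In 5×FAD Aβ3FTnAu against 5×FAD PBS it was −0.0292 and turned to 0.000282 with barcodes lacking mitochondrial UMIs, to 0.00647 after thinning to 500 UMIs, and to 0.0578 without 5×FAD PBS 1 (−0.116 to 0.0578 over left-out samples). The difference in endothelial part was 4.78 points in 5×FAD PBS against WT PBS, with −4.56 without 5×FAD PBS 1 and −14.5 without WT PBS 1 (−14.5 to 24.03). In 5×FAD Aβ3FTnAu against 5×FAD PBS it was −2.70, with 4.88 at 5 UMIs from 3 genes, 3.21 after thinning, 2.35 without 5×FAD Aβ3FTnAu 2 and 6.64 without 5×FAD PBS 1 (−12.0 to 6.64). The other 30 of 40 alternative values of the shares kept their direction. Genes called in 5×FAD PBS against WT PBS numbered 5 of 13679 with no filter on low counts, 1 with at least 500 genes and 1000 UMIs, 4 at 5 UMIs from 3 genes and 0 to 4 with 1 sample left out. In 5×FAD Aβ3FTnAu against 5×FAD PBS they numbered 11 with no filter, 6 at 5 UMIs from 3 genes and 0 to 11 with 1 sample left out. Haemoglobin genes were among those called in 5×FAD PBS against WT PBS under 4 of these settings. They were also among those called in 5×FAD Aβ3FTnAu against 5×FAD PBS with no filter and at 5 UMIs from 3 genes. Of the 599 Hbb-bs UMIs, 562 came from 1 barcode, in 5×FAD PBS 1. DESeq2, RLE factors and kept liver-type barcodes called 0 in both. Leaving out high doublet scores removed no member, so its fits repeat the main ones and test nothing. Their values are among the 260 below. With the replicate number as a block 0 genes were called in both comparisons. The difference between sample 1 and sample 2 of a group in log2 CPM was taken for each of 246 genes. These differences correlated at 0.155 between 5×FAD PBS and WT PBS and at 0.0632 between 5×FAD Aβ3FTnAu and 5×FAD PBS. With 2 same-numbered pairs per comparison, this does not settle whether such samples were paired, and no label says so. Of 260 alternative values for the 20 named results, 245 kept direction and call, 15 passed the threshold and 0 reversed. Fits on barcodes without mitochondrial UMIs, in both comparisons, and on at least 500 genes and 1000 UMIs in 5×FAD Aβ3FTnAu against 5×FAD PBS could not be made. Other causes were not tested.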
